A study of Mus musculus with 8 samples.

Results

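The Nr4a, Egr and Tox factors are 8 transcription factor genes that T cells switch on after a T cell receptor signal or keep on under chronic stimulation. They are Nr4a1, Nr4a2, Nr4a3, Egr1, Egr2, Egr3, Tox and Tox2, chosen by name and found by their Ensembl identifiers among 36811 gene models, and all 8 had a row. Their RNA was measured in regulatory T (Treg) cells, CD4 T cells that restrain immune responses and carry the factor Foxp3. The cells came from spleens of C57BL/6 mice of 12 to 13 weeks with the genotype Foxp3EGFP-DTR Bach2tdRFP/+. In all of these mice the Foxp3 locus carries a green reporter with a diphtheria toxin receptor, and 1 Bach2 allele carries a red reporter (RFP). CD4-enriched cells that were positive for the green reporter were separated by flow cytometry into a Bach2-RFP LO and a Bach2-RFP HI population, called LO and HI cells here. Each population had 4 libraries, labelled F1 and F2 for female and M1 and M2 for male mice. The labels do not say whether libraries with the same label share an animal, or whether each library is a separate animal, so p-values measure only the spread between these libraries.

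Nr4a1 (Nur77), Nr4a2 (Nurr1) and Nr4a3 (NOR1) are orphan nuclear receptors, made within minutes of receptor signalling through calcium and kinase pathways, and in Treg cells they help to keep Foxp3 expressed. Egr1, Egr2 and Egr3 are zinc finger factors of the same early wave, and Egr2 and Egr3 also drive genes that restrain T cells in anergy, a state of unresponsiveness. Tox and Tox2 are DNA-bending factors with a single HMG box. Tox is kept on by calcium and NFAT signalling in chronically stimulated T cells, Tox2 was described in follicular helper T cells, and both are tied with Nr4a factors to the exhausted state of CD8 T cells.

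Promoter windows of RefSeq (build GRCm38.p6, 250 bases before to 50 bases after a transcription start) were at hand for 5 of the 8 members, Nr4a1, Nr4a2, Nr4a3, Egr2 and Tox2. They are shown to set the promoters of the early Nr4a and Egr genes beside that of Tox2, the member that differed between LO and HI cells. Capitals mark the CRE core TGACG, read on either strand (CGTCA on the other), which opens the palindromic CREB site TGACGTCA, and the CArG box, the site of serum response factor.
Nr4a1, chr15:101266596-101266895, plus strand: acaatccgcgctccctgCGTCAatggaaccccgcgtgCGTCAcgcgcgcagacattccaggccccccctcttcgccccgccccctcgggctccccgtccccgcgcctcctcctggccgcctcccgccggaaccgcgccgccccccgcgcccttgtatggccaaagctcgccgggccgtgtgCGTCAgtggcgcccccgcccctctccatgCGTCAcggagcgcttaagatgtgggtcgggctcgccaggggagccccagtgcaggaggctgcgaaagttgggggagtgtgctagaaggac
Nr4a3, chr4:48045055-48045354, plus strand: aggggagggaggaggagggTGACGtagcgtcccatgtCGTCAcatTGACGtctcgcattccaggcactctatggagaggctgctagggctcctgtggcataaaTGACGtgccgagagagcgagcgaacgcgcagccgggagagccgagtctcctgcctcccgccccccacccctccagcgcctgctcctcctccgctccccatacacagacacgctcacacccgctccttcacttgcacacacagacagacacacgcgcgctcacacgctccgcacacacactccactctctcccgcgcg
Nr4a2, chr2:57123954-57124253, minus strand: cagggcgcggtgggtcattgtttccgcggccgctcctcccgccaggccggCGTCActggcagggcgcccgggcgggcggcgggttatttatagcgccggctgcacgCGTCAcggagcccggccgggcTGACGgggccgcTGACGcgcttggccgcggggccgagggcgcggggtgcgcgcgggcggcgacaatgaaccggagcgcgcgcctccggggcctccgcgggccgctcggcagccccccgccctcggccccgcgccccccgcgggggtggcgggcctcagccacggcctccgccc
Egr2, chr10:67537619-67537918, plus strand: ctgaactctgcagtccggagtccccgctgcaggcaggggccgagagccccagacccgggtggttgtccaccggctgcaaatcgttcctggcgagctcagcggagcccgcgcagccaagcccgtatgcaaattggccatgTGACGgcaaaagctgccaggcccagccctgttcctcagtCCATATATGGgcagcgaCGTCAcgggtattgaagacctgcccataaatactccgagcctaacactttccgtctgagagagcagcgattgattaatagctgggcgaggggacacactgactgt
Tox2, chr2:163202877-163203176, plus strand: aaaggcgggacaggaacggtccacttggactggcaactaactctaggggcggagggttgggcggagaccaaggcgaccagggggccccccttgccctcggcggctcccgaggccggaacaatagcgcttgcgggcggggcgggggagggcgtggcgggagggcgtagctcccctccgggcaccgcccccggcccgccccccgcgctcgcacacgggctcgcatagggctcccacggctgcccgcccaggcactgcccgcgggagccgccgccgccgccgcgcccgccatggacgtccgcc
Each of the 3 Nr4a windows held the CRE core 4 times. A CRE core was present in 20.8% of 32851 RefSeq promoter windows of the same length, and 0.231% held 4 or more. The cut of 4 equals the count in the Nr4a windows and was taken for this motif alone, so that share is no test. The Egr2 window held the core 2 times and 1 CArG box, a motif present in 1.63% of windows. The Tox2 window held neither. The GC box GGGCGG, present at least once in 35.7% of windows, occurred 3 times in the Nr4a1, 1 time in the Nr4a3, 5 times in the Nr4a2, 0 times in the Egr2 and 7 times in the Tox2 window. Neither a whole CREB site (1.79% of windows), nor the AP-1 site TGANTCA (7.81%), nor the Nr4a monomer site AAAGGTCA (1.51%) was present in these 5 windows. The Egr site GCGNGGGCG occurred once in the Nr4a1 and once in the Nr4a2 window, against 5.55% of all windows. RefSeq lists 5 starts each for Egr2 and Tox2, of which the third and the first are shown, and the matches depend on the start. Of the other Egr2 windows, those of the first and the second start held 0 CRE cores, and the first also 0 CArG boxes and 4 GC boxes. Of the other Tox2 windows, 1 held a single CRE core. Their GC boxes numbered 3, 0, 1 and 1, so the 7 GC boxes belong to the first start only. Matches were sought on both strands and may overlap, and a match describes letters in a window only.

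The 8 libraries held to their sort labels. Bach2, which encodes a transcriptional repressor, was at 0.894, 0.447, 0.753 and 0.67 FPKM in LO F1, F2, M1 and M2, against 13.6, 20.7, 19.4 and 8.62 FPKM in the HI libraries in the same order. Foxp3 was at 10.5 to 19.8 FPKM in LO and 13.3 to 15.2 FPKM in HI cells (limma, adjusted p = 0.985). FPKM are fragment counts scaled to transcript length and library size, so levels of different genes can be set side by side. The table gives no read totals. The size of the steps among low FPKM values put the libraries at 0.636 to 1.27 of the depth of HI F1, except LO M2 at 5.27. Over the tested genes, Spearman correlations were 0.893 to 0.931 within and 0.848 to 0.894 between populations.

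The sort sets Treg cells of low Bach2 reporter against Treg cells of high Bach2 reporter. Among the 7 members that passed the low-value filter (at least 1 FPKM in at least 4 libraries), Tox2 was the 1 that was called, at an adjusted p below 0.05 in limma. Across all 11260 genes tested, 8.29% were called, 4.65% higher and 3.64% lower in LO cells, and a count of 1 of 7 says nothing about the members as a set. Groups did not overlap for 1 of the 7, again Tox2, against 15.1% of all genes. An unadjusted p below 0.05 was found for 2 of the 7, Tox2 and Tox, against 20.9% of all genes. Egr3 was under the filter, with 6 libraries at 0. The differences of 6 of the 7 were positive, LO minus HI, with a median of 0.54 on the log2 scale against -0.026 over all genes tested. The median absolute difference over all genes was 0.36. The signs of Nr4a1 and Egr1, at 0.13 and 0.12, turned when certain single libraries were left out. The signs thus say nothing about the members as a set. In bulk samples, fewer cells that express a gene and less of its RNA per cell cannot be told apart.

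**Figure D1:**
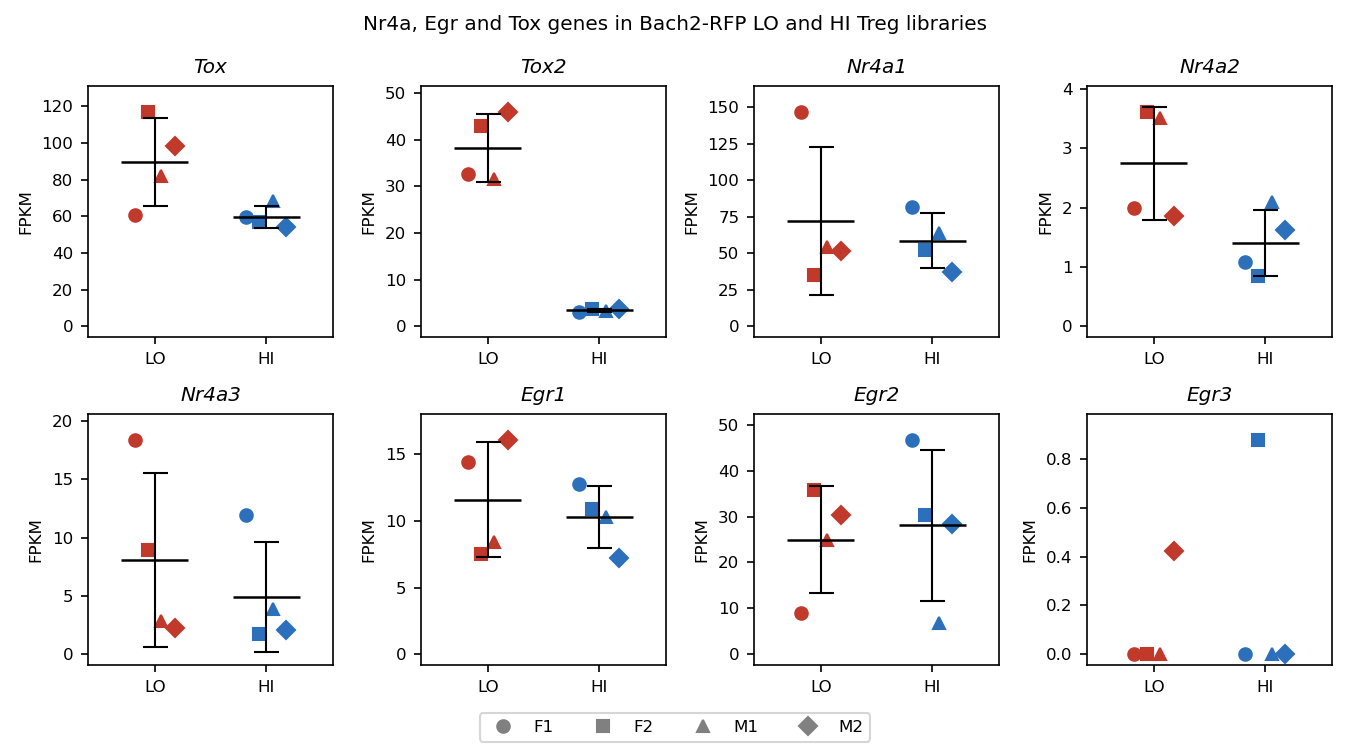
FPKM of the 8 genes in each of the 4 LO and 4 HI libraries, on linear axes that differ between panels, with marker shape for the library label and bars for mean and SD (none for Egr3). The 4 LO libraries lie at 31.6 to 46 FPKM for Tox2, above the HI libraries at 2.99 to 3.71, while the groups overlap for the other genes.

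Tox2 (ENSMUSG00000074607) was at 32.6, 42.9, 31.6 and 46 FPKM in LO F1, F2, M1 and M2, against 2.99, 3.66, 3.41 and 3.71 FPKM in HI F1, F2, M1 and M2. Every LO library stood above every HI library, and within each population the values lay close together. The mean was 38.3 ± 7.25 FPKM in LO and 3.44 ± 0.331 FPKM in HI cells (SD, n = 4 each), a ratio of 11.1. On the log2(FPKM + 1) scale the difference was 3.13 with a standard error of 0.236 and a 95% interval of 2.60 to 3.66 (limma, adjusted p = 0.00013). That was the 11th smallest p of all genes tested, and Tox2 stood at place 50 by rise on the log2 scale among the 524 genes called higher. In the libraries numbered 1 alone (F1 and M1), a split chosen after the data were seen, the difference was 2.98 (limma, adjusted p = 0.0567), and in those numbered 2 alone it was 3.28 (limma, adjusted p = 0.0323). These fits have 2 libraries a population, and called 20 and 209 genes in all.

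Tox (ENSMUSG00000041272), the founding gene of the family, was at 60.9, 117, 81.8 and 98.5 FPKM in LO F1, F2, M1 and M2, against 59.8, 56.8, 68.1 and 54.2 FPKM in HI F1, F2, M1 and M2. It was thus strongly present in both populations. LO F1 lay inside the HI range and the other LO libraries above it. The mean was 89.6 ± 24.1 FPKM in LO and 59.7 ± 6.02 FPKM in HI cells, a ratio of 1.5, and the SD in LO cells was the wider. The log2 difference of 0.54 (standard error 0.211, 95% interval 0.07 to 1.02) did not pass the adjusted threshold (limma, adjusted p = 0.173). Its single-gene interval lay above 0, without adjustment for the number of genes tested. The difference was 0.14 in the libraries numbered 1 alone and 0.94 in those numbered 2 alone.

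The make-up of the Tox pair also differed. Tox2 was 34.9%, 26.8%, 27.8% and 31.8% of the summed Tox and Tox2 FPKM in LO F1, F2, M1 and M2, against 4.76%, 6.05%, 4.78% and 6.41% in HI F1, F2, M1 and M2. Tox remained the larger of the pair in all 8 libraries. The summed level was 128 ± 30.1 FPKM in LO and 63.2 ± 5.89 FPKM in HI cells (SD, n = 4 each), with the lowest LO library at 93.5 and the highest HI library at 71.5. Of the relatives, Tox3 was listed at 0 in all 8 libraries, and Tox4, a widely expressed member, was at 27.3 to 44.6 FPKM in LO and 29.7 to 55.8 FPKM in HI cells.

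Nr4a1 (ENSMUSG00000023034), the receptor that Nur77 reporter mice read out, was at 147, 35.3, 54.6 and 51.7 FPKM in LO F1, F2, M1 and M2, against 81.9, 52, 64.3 and 37.2 FPKM in HI F1, F2, M1 and M2. LO F1 stood far above the other 7 libraries, the groups overlapped, and HI F1 was the highest HI library. The mean was 72.1 ± 50.6 FPKM in LO and 58.8 ± 18.9 FPKM in HI cells. The log2 difference was 0.13 (standard error 0.41), and its 95% interval ran from -0.79 to 1.05 (limma, adjusted p = 0.902), which leaves room for changes of either sign. Its sign turned when LO F1 (-0.28) or HI M2 (-0.07) was left out.

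Nr4a3 (ENSMUSG00000028341), whose promoter is used in timer mice to date receptor signals, was at 18.4, 8.9, 2.81 and 2.25 FPKM in LO F1, F2, M1 and M2, against 11.9, 1.72, 3.89 and 2.1 FPKM in HI F1, F2, M1 and M2. F1 was the highest library of both populations, which overlapped. The log2 difference was 0.54 (standard error 0.669, 95% interval -0.95 to 2.03; limma, adjusted p = 0.713). It was 0.05 without LO F1 and 1.01 without HI F1.

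Nr4a2 (ENSMUSG00000026826) was on average the least abundant of the 3 receptors, at 1.99, 3.61, 3.5 and 1.85 FPKM in LO F1, F2, M1 and M2, against 1.09, 0.853, 2.09 and 1.62 FPKM in HI F1, F2, M1 and M2. It was highest in LO F2 and LO M1, and only HI M1 reached into the LO range. The log2 difference was 0.62 with a 95% interval of -0.15 to 1.40 (limma, adjusted p = 0.344). Nr4a1 made up 86 ± 8.35% of the summed Nr4a FPKM in LO and 91 ± 3.67% in HI cells (SD, n = 4 each). Of the retinoid X receptors that Nr4a1 and Nr4a2 can pair with, Rxra was at 3.39 to 4.39 FPKM in LO and 1.39 to 2.28 FPKM in HI cells, without overlap. It did not pass (limma, adjusted p = 0.165). Rxrb was at 24.2 to 28.7 FPKM in LO and 29.7 to 40.2 FPKM in HI cells, and Rxrg was listed at 0 in all 8 libraries.

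Egr1 (ENSMUSG00000038418) was at 14.4, 7.54, 8.42 and 16.1 FPKM in LO F1, F2, M1 and M2, against 12.8, 10.9, 10.3 and 7.2 FPKM in HI F1, F2, M1 and M2. LO held the highest values, in M2 and F1, and also values inside the HI range. The log2 difference was 0.12 with a 95% interval of -0.59 to 0.82 (limma, adjusted p = 0.879).

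Egr2 (ENSMUSG00000037868) was at 8.88, 35.8, 24.8 and 30.4 FPKM in LO F1, F2, M1 and M2, against 46.8, 30.4, 6.85 and 28.3 FPKM in HI F1, F2, M1 and M2. The low libraries were LO F1 and HI M1 and the highest was HI F1, and the means of 25 ± 11.6 FPKM in LO and 28.1 ± 16.4 FPKM in HI cells (SD, n = 4 each) were closer to each other than either SD. The log2 difference was -0.06 with a 95% interval of -1.35 to 1.24 (limma, adjusted p = 0.972). Egr2 made up 65 ± 19.4% of the summed Egr FPKM in LO and 67.6 ± 18.8% in HI cells (SD, n = 4 each).

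Egr3 (ENSMUSG00000033730) was listed at 0.425 FPKM in LO M2, the deepest library, and at 0.881 FPKM in HI F2, and at 0 in the other 6 libraries. Scaled by relative depth these were 2 and 1 times the smallest step, so the gene was at the limit of detection and no comparison was made. Egr4 was also under the filter, with 5 libraries at 0 and at most 0.968 FPKM, and stood at 6 times its smallest step in LO M2. The co-repressors of the Egr factors, Nab1 and Nab2, were not called either. Nab2 was at 11.2 to 21.7 FPKM in LO and 18.4 to 50 FPKM in HI cells.

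**Figure D2:**
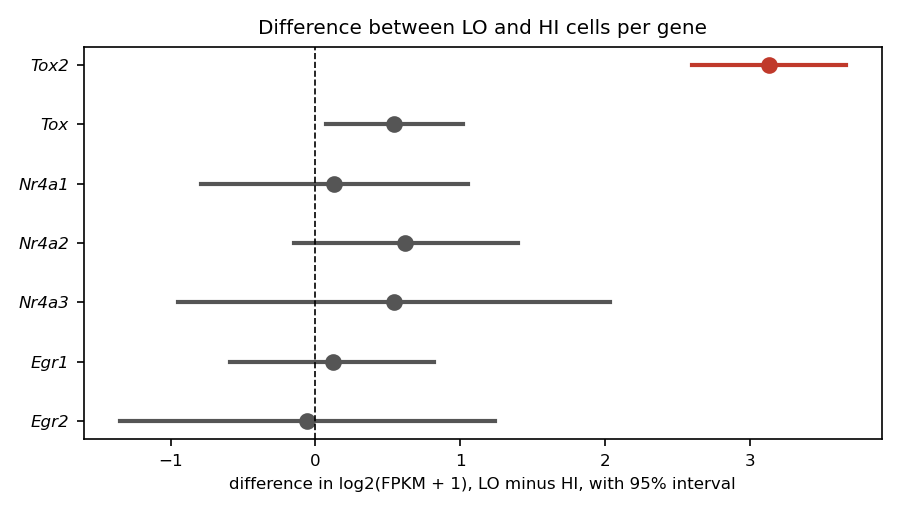
Difference in log2(FPKM + 1) between LO and HI cells, LO minus HI, for the 7 members tested, as points with 95% intervals of the single gene from limma. The interval of Tox2 runs from 2.60 to 3.66 and that of Tox from 0.07 to 1.02, while the intervals of the Nr4a and Egr genes include 0.

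Ordered by mean FPKM, LO cells held Tox, Nr4a1, Tox2, Egr2, Egr1, Nr4a3, Nr4a2 and Egr3. In HI cells the order was Tox, Nr4a1, Egr2, Egr1, Nr4a3, Tox2, Nr4a2 and Egr3. Tox2 held the third place in LO cells and the sixth in HI cells. Neighbours in these orders overlapped in their library values, except Nr4a2 and Egr3 in LO cells and Tox2 and Nr4a2 in HI cells.

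The libraries also carry the numbers 1 and 2 in their labels, whose meaning the labels do not give. The numbers were compared because an earlier analysis of these data had seen the immediate early gene Fos differ with them. Nr4a1 was the 1 member with all 4 libraries numbered 1 above all 4 numbered 2, an order that occurs for 3.86% of all genes in either direction. Its means were 86.9 FPKM for number 1 and 44 FPKM for number 2. Over label means (2 labels against 2) the log2 difference was 0.88 (standard error 0.308; limma, adjusted p = 0.51). The label means of Egr2 went the other way at -0.87 (standard error 0.285, limma, adjusted p = 0.504). Its highest library, HI F1 at 46.8 FPKM, is however numbered 1, and averaging with LO F1 at 8.88 FPKM hides that spread. Over 8 libraries with the reporter level as covariate, the standard error of Egr2 was 0.536 (limma, adjusted p = 0.619). Nr4a3 was at 1.03 over label means (standard error 0.672, limma, adjusted p = 0.673). None of the 7 members was called, against 0.00888% of all genes (1 gene). An unadjusted p below 0.05 was found for 2 of them, Nr4a1 and Egr2, and for 1038 of the 11260 genes tested. A count of 2 of 7 says nothing about the members as a set.

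The same split was larger in other immediate early genes. Fos, a subunit of AP-1, was at 1450, 28.9, 441 and 20.8 FPKM in LO F1, F2, M1 and M2, against 1520, 46, 442 and 23.6 FPKM in HI F1, F2, M1 and M2. Its log2 difference between numbers was 4.78 (limma, adjusted p = 0.358 over label means). An unplanned fit over 8 libraries with the reporter level as covariate gave an adjusted p of 0.0438 (limma). That fit counts the LO and the HI library of a label as separate, although they may share an animal, so its p-value may be too small. Since Fos was the reason for comparing the numbers, its values are no independent support for a difference between them. Dusp1, a phosphatase that shuts off MAP kinases, was at 1170, 80.3, 304 and 72.5 FPKM in LO F1, F2, M1 and M2, against 573, 35.1, 186 and 24 FPKM in HI F1, F2, M1 and M2. Of 30 tested immediate early genes outside the members, 8 stood higher in all libraries numbered 1 than in all numbered 2, and 0 lower. These were Fos, Fosb, Junb, Ier2, Dusp1, Klf6, Zfp36 and Pim1. LO F1 was the highest library for 19 of the 30, against 13.8% of all genes, and for 2 of the 7 members, Nr4a1 and Nr4a3.

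**Figure D3:**
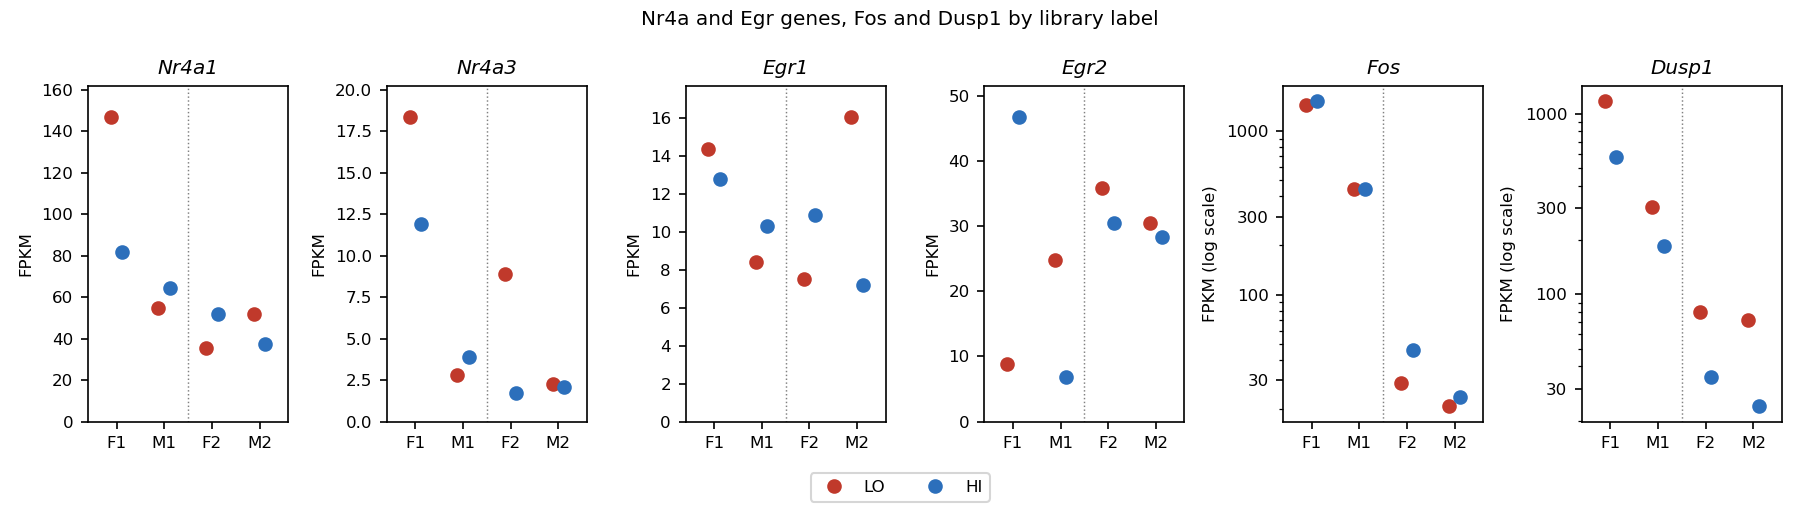
FPKM of Nr4a1, Nr4a3, Egr1, Egr2, Fos and Dusp1 by library label, with LO and HI libraries side by side, labels numbered 1 left and numbered 2 right of the dotted line, and log axes for Fos and Dusp1. Fos is at 441 to 1520 FPKM in libraries numbered 1 and at 20.8 to 46 FPKM in those numbered 2, and Nr4a1 runs the same way over a smaller range.

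Among the libraries of a population, Nr4a1 moved with this group. After subtraction of each population's mean, its Pearson correlation over the 8 libraries was 0.84 with Fos, 0.89 with Jun and 0.87 with Dusp1. Nr4a3 came to 0.68, 0.79 and 0.76 with the same genes. Egr1 came to 0.33, 0.63 and 0.42, and Egr2 to -0.42, -0.16 and -0.39. Tox2, higher in LO cells, came to -0.89, -0.60 and -0.81, Tox to -0.49, -0.56 and -0.45, and Nr4a2 to -0.01, -0.47 and -0.09. Nr4a1 correlated at 0.66 with Nr4a3, at 0.67 with Egr1 and at -0.52 with Egr2. With Nr4a2, Tox and Tox2 it came to -0.45, -0.69 and -0.66. Tox correlated at 0.63 with Tox2, and Nr4a2 at -0.80 with Egr1. These values describe 8 libraries of unequal depth and carry no test. By the same measure, the 3 genes most like each member among about 8449 genes of at least 5 FPKM were Hsd17b14, Ppp2r2d and Cited2 for Nr4a1, at 0.97 to 0.98. For Tox they were Gtf2h3, Zdhhc13 and Txndc9, at 0.98 to 0.99, and for Tox2 Metap2, Rfwd3 and Igtp, at 0.98 to 0.99. For Nr4a2 they were Spns1, Fkbp1a and Frmd4b, for Nr4a3 Arid4a, Ap1s1 and Gm13461, for Egr1 Timm21, Prpf38b and Gins1, and for Egr2 Lcmt1, Synj1 and Rps6kb1, at 0.95 to 0.98. No member was among the 3 genes most like another. The best value was 0.98 or 0.99 for every member, and a search of so many genes over 8 libraries can yield such values without any link.

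Female and male mice were compared over label means. None of the 7 members was called, against 0.0178% of all genes (2 genes). An unadjusted p below 0.05 was found for 0 members and for 377 of the 11260 genes tested. The largest difference was that of Nr4a3, with means of 10.2 FPKM in female and 2.76 FPKM in male libraries, at 1.29 (standard error 0.594; limma, adjusted p = 0.999). The difference between LO and HI cells was also compared between the sexes, and again 0 members were called, against 0.0178% of all genes. Here 431 of the 11260 genes tested and 0 members had an unadjusted p below 0.05. Egr2 had the widest contrast, -1.93 for female minus male with a 95% interval of -4.39 to 0.53. Tox2 differed little between the sexes in this respect, at 0.05 with a 95% interval of -1.19 to 1.30.

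Lists of neighbouring genes were counted in the comparison of LO with HI cells, beside the 4.65% of all genes called higher and the 3.64% called lower. Of the 30 other immediate early and receptor-induced genes, 2 were higher, 2 lower and 26 not called, with a median log2 difference of 0.22. Gadd45b, a stress sensor, rose to 82.1 ± 50.8 FPKM in LO cells, against 24.7 ± 5.73 FPKM in HI cells (limma, adjusted p = 0.0239). Klf10, a factor induced by TGF-beta, averaged 23.8 ± 5.1 FPKM in LO and 10 ± 3.03 FPKM in HI cells (limma, adjusted p = 0.0324). Myc, a driver of cell growth, fell to 29.5 ± 4.09 FPKM in LO cells, against 110 ± 19.9 FPKM in HI cells (limma, adjusted p = 0.000485). Btg1, an antiproliferative gene, averaged 69.9 ± 12 FPKM in LO and 119 ± 16.8 FPKM in HI cells (limma, adjusted p = 0.027). The calls of Klf10, Btg1 and Gadd45b were lost under 11, 10 and 6 of 20 other settings.

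Genes of the pathways above these factors were counted by their RNA only, which does not show how active a pathway was. Beside 8.29% of all genes called in either direction, these counts say nothing about the pathways. Of 15 calcineurin and NFAT genes, 0 were higher and 1 lower, with a median of 0.202. The lower one was Rcan3, a regulator of calcineurin, at 14.7 ± 2.84 FPKM in LO and 30 ± 5.49 FPKM in HI cells (limma, adjusted p = 0.0305), a call lost under 10 of 20 other settings. Nfatc2, an NFAT factor of T cells, was at 14.3 to 18.4 FPKM in LO and 4.37 to 11.4 FPKM in HI cells and did not pass (limma, adjusted p = 0.0878). Nfatc1 was at 30.1 to 53.5 FPKM in LO and 22.3 to 27.8 FPKM in HI cells and did not pass either (limma, adjusted p = 0.168). Of 26 genes of the ERK kinases and of the SRF, Elk, MEF2 and CREB factors, 0 were called in either direction, with a median of -0.115.

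Of 18 genes tied to Egr2 and Egr3 in anergy, 3 were higher, 0 lower and 15 not called, with a median of 0.276. Rnf128 (Grail), an E3 ubiquitin ligase, was at 21.2, 16.5, 11.5 and 16.4 FPKM in LO F1, F2, M1 and M2, against 0, 0, 0.768 and 2.37 FPKM in HI F1, F2, M1 and M2 (limma, adjusted p = 0.00127). Nrp1, a semaphorin co-receptor, averaged 103 ± 14.5 FPKM in LO and 46.4 ± 7.9 FPKM in HI cells (limma, adjusted p = 0.0041). Tnfsf11 (RANKL), a TNF family ligand, averaged 31.8 ± 5.9 FPKM in LO and 12.7 ± 3.82 FPKM in HI cells (limma, adjusted p = 0.0164). The Egr targets Cblb and Itch, which are ubiquitin ligases too, were at 11.1 to 19.2 and 14 to 24.3 FPKM in LO and at 8.64 to 17.9 and 10.3 to 24.6 FPKM in HI cells.

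The list of 25 tested genes tied to Nr4a and Tox factors in chronically stimulated T cells held the most calls, with 11 higher, 3 lower and 11 not called, and a median of 0.798. It was chosen with earlier results of these data known, so its count is no independent support for a role of these factors. Higher were Pdcd1, Havcr2, Tigit and Ctla4 (inhibitory receptors), Tnfrsf9 and Tnfrsf4 (costimulatory receptors), Batf, Prdm1, Id2 and Ikzf2 (transcription regulators) and Gzmb (granzyme B). Lower were Tcf7, Lef1 and Ccr7, genes of resting T cells. Tigit rose to 501 ± 53.9 FPKM in LO cells, against 44.2 ± 12.3 FPKM in HI cells (limma, adjusted p = 5.04e-05), and Gzmb rose to 120 ± 11.3 FPKM, against 5.74 ± 2.6 FPKM in HI cells (limma, adjusted p = 5.04e-05). Ccr7, the receptor for homing to lymph nodes, fell to 59.5 ± 13.6 FPKM in LO cells, against 669 ± 39 FPKM in HI cells (limma, adjusted p = 1.01e-05). Batf, an AP-1 family factor, averaged 277 ± 16.7 FPKM in LO and 96.7 ± 11.2 FPKM in HI cells (limma, adjusted p = 0.000295). Lag3 and Entpd1, which belong to the same list, did not pass and overlapped between populations. In the libraries numbered 1 alone 2 were higher and 1 lower, and in those numbered 2 alone 8 were higher and 2 lower.

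**Figure D4:**
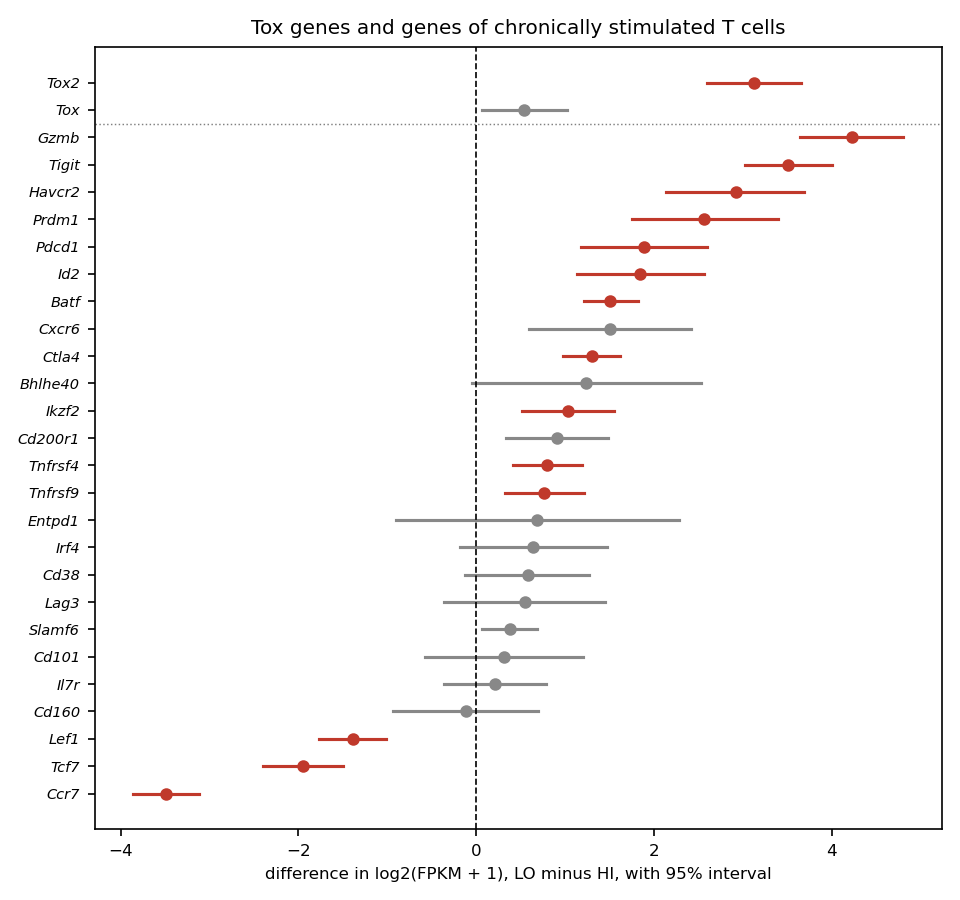
Difference in log2(FPKM + 1), LO minus HI, with 95% intervals of the single gene from limma, for Tox2 and Tox above the dotted line and for the 25 tested genes of chronically stimulated T cells below it, in red where the adjusted p was below 0.05. Genes in red include 11 to the right of 0, with Gzmb and Tigit farthest, and 3 to the left, with Ccr7 farthest at -3.49.

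Of 9 Treg genes tied to Nr4a factors, 3 were higher and 1 lower, with a median of 0.0142. Ctla4 and Ikzf2, among the higher ones, were already counted in the chronic stimulation list, so the counts are not separate. Ctla4 averaged 251 ± 32.4 FPKM in LO and 101 ± 7.53 FPKM in HI cells (limma, adjusted p = 0.000642). Ikzf2 (Helios) averaged 22.1 ± 4.25 FPKM in LO and 10.2 ± 1.4 FPKM in HI cells (limma, adjusted p = 0.0214). Il2ra (CD25), which gives the interleukin-2 receptor its high affinity, fell to 27.7 ± 5.13 FPKM in LO cells, against 75.6 ± 8.83 FPKM in HI cells (limma, adjusted p = 0.00149). Gata3, a helper lineage factor, was at 272 to 770 FPKM in LO and 160 to 281 FPKM in HI cells (limma, adjusted p = 0.0461), and its call was lost under 13 of 20 other settings.

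Markers of other cells moved with the sort. Of 7 tested B cell markers 3 were lower and 0 higher (Ms4a1, Cd79a and Fcer2a). The summed FPKM of the B cell list was 77.2 to 104 in LO and 148 to 261 in HI cells. Pax5 was at 0 in the 4 LO libraries and also in HI M1. Of 10 tested myeloid markers 4 were lower and 0 higher (Csf1r, Fcgr3, Siglech and Tyrobp), with sums of 391 to 621 FPKM in LO and 472 to 697 FPKM in HI cells. The uncalled ones went both ways. Itgam, Itgax, Cst3 and Spi1 had log2 differences of 1.25, 0.73, 0.26 and 0.19, and Lyz2 and Adgre1 of -0.46 and -0.93. Of 5 tested plasma cell markers 2 were higher (Jchain and Prdm1, the second also a gene of effector T cells), with sums of 178 to 269 FPKM in LO and 123 to 150 FPKM in HI cells, and Tnfrsf17 at 0 in 7 libraries. The uncalled plasma cell markers Sdc1, Xbp1 and Mzb1 had log2 differences of 1.06, -0.13 and -0.88. Of 4 tested NK and innate lymphoid markers Nkg7 was higher and Klrd1 and Eomes lower, with sums of 148 to 290 FPKM in LO and 56.8 to 134 FPKM in HI cells. Nkg7 made up most of these sums, at 146 to 285 FPKM in LO and 48.5 to 99.7 FPKM in HI cells. Ncr1 was at 0 in 3 LO libraries and also in HI F1. Of 1 tested CD8, 2 granulocyte and 3 erythroid or platelet markers 0 were called. Of 11 heat shock and handling genes 1 was lower (Hspe1) and 0 higher. Of 9 T cell and Treg markers 2 were higher and 1 lower, all 3 named above. The calls of Hspe1, Klrd1, Fcgr3, Ikzf2 and Eomes were lost under 11 of 20, 13 of 19, 8 of 19, 7 of 20 and 5 of 19 other settings. What part any of these has in the Tox2 difference was not tested.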

How the data were processed

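RNA of 8 libraries was measured by SmartSeq2 and Illumina sequencing, per the labels' protocols. The authors deposited FPKM values, 1 column per library, and the table's name gives Cuffnorm as their source. The submitters' processing notes name FastQC, cutadapt, HISAT2 and, as builds, NCBIM37 and mm9, with no version of any tool. The sources used here do not give the annotation, the scaling between libraries or the use of strand. The series design text describes another, single-cell experiment and was not used. Symbols were matched by Ensembl ID, for 31840 of 36811 gene models.

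Genes with at least 1 FPKM in at least 4 libraries (11260) entered limma 3.58.1 (R 4.3.3) on the log2(FPKM + 1) scale (eBayes with a variance trend, Benjamini-Hochberg adjustment over all genes tested, threshold 0.05). Fold changes on that scale understate the change of low genes, while ratios are of mean FPKM. Sex and library number were compared over label means. Library number was also fitted over 8 libraries with the reporter level as covariate, where so stated. Relative depth is the most frequent ratio to HI F1 among gene models below 2 FPKM, and the number of reads, and with it the counting error, is unknown.

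The members and lists were chosen with earlier results of these data known, and 2 list genes are not reported here and enter no list count. Named are the members, Bach2, Foxp3, Fos, up to 4 genes of each list with the smallest p among those called, and the 3 genes most like each member, and any further gene in the text was picked with its values known. Other settings were no filter, a filter of 5 FPKM, a pseudocount of 0.1, quantile and upper quartile scaling, eBayes without trend, covariates, the label as a block, each library left out, and fits within the library numbers.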

Additional observations from a re-analysis of the deposited data

Results flagged for a closer look

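Among the 16 sets of 4 library values (8 genes in LO and in HI cells), 1 library stood apart by Dixon's criterion (its gap to the next value against the whole range) in 2 sets, both of Egr3. Egr3 was at 0.425 FPKM in LO M2 with the other LO libraries at 0, and at 0.881 FPKM in HI F2 with the other HI libraries at 0. Chance sets apart about 1 in 20 such sets, and any gene seen in a single library of 4 meets this criterion. LO M2 was the deepest library, at 5.27 times the depth of HI F1, and HI F2 was at 1.27 times. Neither value enters a comparison.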

How the results depend on the processing

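Over 20 other settings, Tox2 stayed positive, at 2.98 to 3.42 on the log2 scale, and kept its call in 19. The exception was the fit on libraries numbered 1 alone (0 members called, 20 genes in all, Tox2 adjusted p = 0.0567, limma), against 209 genes in those numbered 2 alone, 934 in the full fit and 642 to 1032 in the other 18 settings (642 to 788 with 1 library left out, where 1 member was called each time). With the label as a replicate block 771 genes and 1 member were called, and no member's call changed. A LO and a HI library of the same label correlated at 0.0149 to 0.113 in their deviations, and 6 of 8 libraries correlated best with their own label. Same-labelled libraries were not taken as pairs in the main fit, since the labels do not say that they share an animal. With 1 library left out, Tox2 ran from 3.04 to 3.21, Tox from 0.40 to 0.71, Nr4a3 from 0.05 to 1.01, Nr4a1 from -0.28 to 0.39, Egr2 from -0.6 to 0.36 and Egr1 from -0.05 to 0.29, and Foxp3 from -0.13 to 0.15. Nr4a1 turned negative without LO F1 or HI M2, Egr1 without LO M2 or HI M2, and Egr2 positive without LO F1, HI F1, HI F2 or HI M2. In libraries numbered 1 alone Egr1 was at -0.05 and Tox at 0.14, and in those numbered 2 alone Nr4a1 was at -0.04, Egr2 at 0.16, Tox at 0.94 and Foxp3 at -0.26. Without both HI M1 and LO M2, Egr1 was at -0.04. The cause was not tested. Quantile and upper quartile scaling changed no member's call. Between the sexes 1 gene was called with a pseudocount of 0.1, against 2. Tox stayed uncalled throughout (adjusted p = 0.0588 to 0.843, limma). Of the chronic stimulation list 2 to 13 genes were higher and 1 to 3 lower. In the immediate early and receptor-induced list, 0 to 4 were higher and 0 to 2 lower. With 4 libraries a population and unknown read totals, differences of the Nr4a and Egr genes below their intervals could not be seen.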

Other observations

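Tox2 was described in follicular helper T cells, so the levels of 2 genes of follicular T cells were read after the values of Tox2 had been seen. Cxcr5, the receptor that guides cells into B cell follicles, was at 19.3, 43.5, 19.8 and 73.3 FPKM in LO F1, F2, M1 and M2, against 19.3, 22.1, 14.8 and 34.4 FPKM in HI F1, F2, M1 and M2 (limma, adjusted p = 0.49). Bcl6, the factor that directs the follicular fate, was at 0.877, 2.63, 1.44 and 1.97 FPKM in LO F1, F2, M1 and M2, against 3.9, 2.54, 3.38 and 1.75 FPKM in HI F1, F2, M1 and M2 (limma, adjusted p = 0.456). Neither gene passed, and for both the populations overlapped.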
